A study of Homo sapiens with 3 samples.

Results

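Albumin and the acute-phase plasma proteins are the main secreted products of liver cells, and 10 of their genes were followed in Huh7 cells exposed to chlorogenic acid (CA): ALB, TTR, AHSG, SERPINA1, SERPINA3, ITIH4, HP, HPX, ORM1 and CRP. With each array scaled to its 75th percentile, ALB, AHSG, SERPINA1, HP and ORM1 stayed under 1.3-fold at both doses, and CRP sat at the edge of detection. SERPINA3, the gene of the protease inhibitor alpha-1-antichymotrypsin, stood apart because its 3 probes went opposite ways: 2 gave 4.85-fold and 2.76-fold more signal after CA 100 µM than in untreated cells, while the third gave 3.38-fold less. TTR, the carrier of thyroid hormone and of retinol-binding protein, gave 1.38-fold less signal at both doses, but under 1.3-fold less with some other scalings. HPX, the haem-binding protein hemopexin, gave 1.54-fold more after CA 50 µM. At that dose ITIH4 gave 1.44-fold more, but under 1.3-fold with another background correction. These are single arrays, so none of the differences has a replicate behind it and no test was made, and in a bulk culture fewer cells with an RNA cannot be told apart from less of it per cell.

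Huh7 is an established human hepatoma line, kept here in Dulbecco's modified Eagle's medium with 10% fetal calf serum and antibiotics. The 3 groups were untreated cells, cells given CA 50 µM and cells given CA 100 µM, each for 24 h, and their total RNA was taken. CA was dissolved in dimethyl sulfoxide, and the methods of the study state that this vehicle served as the untreated control. Each group was measured on 1 one-colour Agilent whole human genome array with Cy3-labelled RNA, so the spread between cultures is unknown, groups cannot be said to overlap or not, and both comparisons with the untreated cells rest on the same untreated array.

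The 10 genes were 10 of 19740 genes named on the array, and they were found through the RefSeq accession that the array files give for each probe, which led to 13 of 34127 gene probes. They were selected with their signals on these arrays already known, SERPINA3 for its disagreeing probes, so all of their values stand as a description. Signals are given as processed intensity in arbitrary units, without scaling between arrays, and changes as log2 ratios after subtracting each array's 75th percentile of log2 signal. That percentile was 1059 on the untreated array, 1207 on the CA 50 µM array and 1249 on the CA 100 µM array, so an intensity that was equal on all 3 arrays would have a ratio below 0. A ratio was given where a probe was well above background on both arrays, which held on all 3 arrays for 11 of the 13 probes, CRP being the gene of the other 2. Of the 10 hepatocyte markers examined, all 10 were well above background on every array, among them RBP4, APOA1 and APOA2.

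During infection, injury or inflammation, cytokines such as interleukin-6 and interleukin-1 change what hepatocytes secrete. Interleukin-6 acts through its receptor and gp130 on the kinases JAK1, JAK2 and TYK2 and on the factor STAT3, while C/EBP factors and NF-kappaB act on the same promoters. Proteins whose production then goes up are called positive acute-phase proteins, and albumin, transthyretin and fetuin-A, which go down, are called negative ones. The signals below are RNA signals in cells to which no cytokine was added according to the labels.

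Promoter stretches with a letter match to these liver and acute-phase factors are shown to place the genes on the genome beside the factors described later. RefSeq promoter windows (GRCh38.p14), reaching from upstream of each annotated start to just past it, were held for 8 of the 10 genes. The motifs reported were TTGCNNAA for C/EBP and TTCNNNGAA for STAT, each searched on both strands, and TATAAA for the TATA box on the strand of the gene; none of the matches printed overlaps another. Among all 35116 promoter windows, 10.5% held the C/EBP letters, 7.66% the STAT letters and 7.33% the TATA letters. In the sequences below, written 5′ to 3′ on the strand of the gene, the capitals mark the match, which for C/EBP in ALB and AHSG reads on the opposite strand.
ALB, C/EBP letters, chr4:73404151-73404180, plus strand: tcaaacaatttTTTGGCAAgaatattatga
AHSG, C/EBP letters, chr3:186612990-186613019, plus strand: atcctgtatccTTATGCAAttcttccggca
HPX, C/EBP letters, chr11:6441172-6441201, minus strand: ctgcttgaaaaTTGCTGAAgggggttgggg
ITIH4, STAT letters, chr3:52830727-52830756, minus strand: agatcccaatTTCCCAGAAcctgcccccat
The TATA letters stood in ORM1 and CRP, both at position -29 from the annotated start. The windows of SERPINA1 and SERPINA3 held none of the 3 motifs. Such a match is a description of letters, and its absence says only that these letters are not in this window.

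SERPINA3 encodes alpha-1-antichymotrypsin, a positive acute-phase serpin that inhibits neutrophil cathepsin G and mast cell chymase. Its probe A_23_P162918 had an intensity of 43.7 on the untreated array, 46.0 after CA 50 µM and 249.96 after CA 100 µM. Its probe A_23_P2920 had 147 untreated, 124 after CA 50 µM and 478 after CA 100 µM. Its probe A_33_P3399788 had 1450 untreated, 425 after CA 50 µM and 505 after CA 100 µM. The first of these probes was therefore high on the CA 100 µM array alone, as was the second, whereas the third was high on the untreated array alone.

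The log2 ratio of A_23_P162918 was -0.11 at CA 50 µM and 2.28 at CA 100 µM, and between the doses it was 2.39, a 5.25-fold higher signal at the higher dose. For A_23_P2920 the ratios were -0.43 and 1.46 against untreated cells and 1.90 between the doses, the last a 3.73-fold higher signal. For A_33_P3399788 they were -1.96 and -1.76, that is 3.89-fold and 3.38-fold lower, and 0.20 between the doses. At CA 50 µM the scaled signal of the first probe was thus lower by less than the spot SD given below and that of the other 2 was lower by very different amounts, and the comparison of CA 100 µM with untreated cells set the probes in opposite directions. With normexp background correction and an offset of 50, the ratio of A_23_P162918 at CA 100 µM was 1.21 and that of A_23_P2920 was 1.18. That setting changes the background and adds a constant at once, and the part of each was not tested.

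Printing and scanning give a scale for these numbers. Some probes are printed on the array 10 times, and over such probes with signals like those of the first 2 SERPINA3 probes the SD of the ratio between spots was 0.12 at CA 50 µM and 0.13 at CA 100 µM. For the third SERPINA3 probe the same SD was 0.066 and 0.062. Those values cover the array surface and the scanner only and leave out the cells and the labelling.

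Each SERPINA3 probe was printed as 1 spot, none carried a flag for outlier, saturation or background, and none lay in an area where clusters of dim spots were bright on 1 array alone, called a disturbed area from here on. Around A_23_P162918, 0 of 70 spots had a ratio as high at CA 100 µM, and the highest of them was 0.65. Around A_23_P2920 it was 0 of 74, with a highest ratio of 0.46. Around A_33_P3399788, 0 of 87 spots were as low at CA 50 µM, where the lowest was -0.89, and 0 of 87 at CA 100 µM, where the lowest was -1.37. In these comparisons the probes thus lay outside the ratios of the spots around them. At CA 50 µM 2 of the probes did not: 23 of 69 spots around A_23_P162918 and 3 of 76 around A_23_P2920 were as low. SERPINA3 was selected for these ratios, so the counts are a description, and a cause on the array was not tested.

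**Figure D1:**
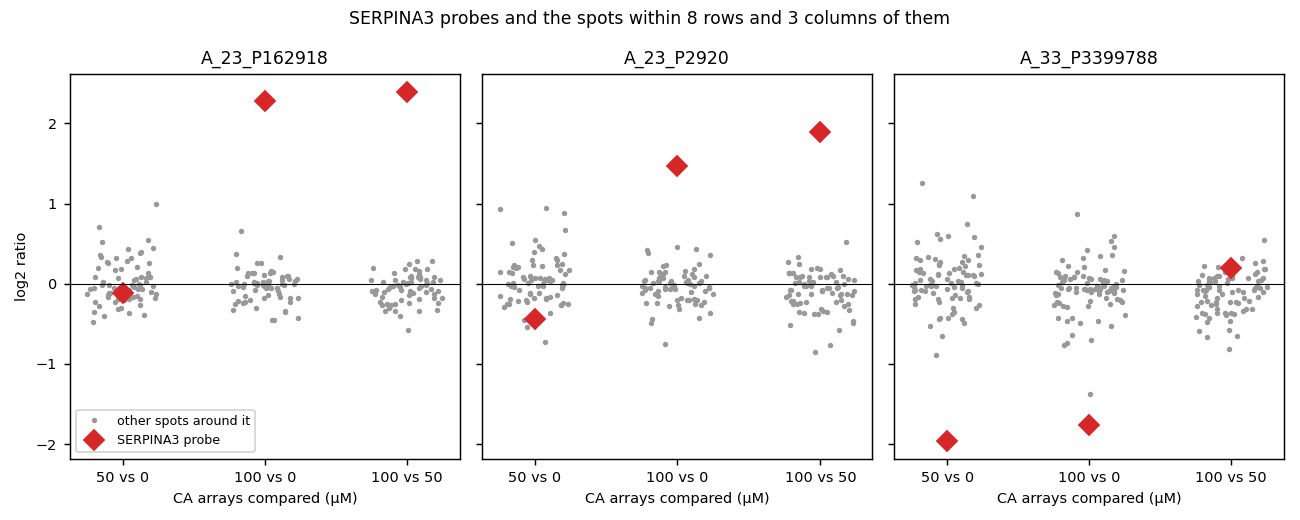
Log2 ratio (vertical axis) of each SERPINA3 probe (red diamond, 1 panel per probe) and of the single spots printed near it (grey points) in the 3 comparisons of arrays along the horizontal axis. A_23_P162918 at 2.28 and A_23_P2920 at 1.46 lie above all grey points at CA 100 µM against untreated, and A_33_P3399788 lies below all of them at both doses, at -1.96 and -1.76.

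Over the whole array, 3 of 22267 probes, A_23_P162918 included, had a ratio of at least 2.28 at CA 100 µM, and 39 had at least that of A_23_P2920, 14 of them outside the disturbed areas. A_33_P3399788 was among the 5 lowest of 22471 probes at CA 50 µM and among the 4 lowest of 22267 at CA 100 µM. All 3 probes are assigned to the same transcript record, NM_001085. The distance between the highest and the lowest log2 ratio of the SERPINA3 probes was 1.85 at CA 50 µM and 4.04 at CA 100 µM, against a median distance of 0.25 and 0.20 over the 3216 genes with more than 1 measured probe. Among the other genes only PRP4K had a distance as large at CA 100 µM, and it is named after its values were seen. SERPINA3 was the only one of the 3216 genes at CA 100 µM with probes at least 2-fold higher and at least 2-fold lower. At CA 50 µM 3 of these genes, SERPINA3 included, had a distance at least as large as that of SERPINA3. The 1 gene with probes at least 2-fold both ways at that dose was a gene other than SERPINA3. Positions of the probes along the transcript were not analysed here, so which of the signals follows the SERPINA3 mRNA cannot be told from these values.

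In RefSeq gene order SERPINA3 closes a row of serpin genes that also holds SERPINA1, and these neighbours were looked up after the SERPINA3 values were seen. SERPINA4, the gene of kallistatin, had 77.2 untreated, 126 after CA 50 µM and 133 after CA 100 µM, with ratios of 0.52 and 0.55. SERPINA5, the protein C inhibitor gene next to SERPINA3, had ratios of 0.12 and 0.07. SERPINA6, which encodes the cortisol carrier, had 0.14 and -0.18, SERPINA9 had 0.36 and -0.32, SERPINA10 had 0.03 and -0.06, and SERPINA11 had 0.04 and -0.08. None of these neighbours had a ratio of the size seen for the SERPINA3 probes at CA 100 µM or for A_33_P3399788 at CA 50 µM. The other SERPINA3 probes had -0.11 and -0.43 at CA 50 µM, smaller in size than the ratio of SERPINA4 there.

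ALB encodes serum albumin, the most abundant plasma protein and a negative acute-phase protein. Its probe had an intensity of 109428 untreated, 112826 after CA 50 µM and 100920 after CA 100 µM, the CA 100 µM array being the lowest. After scaling, the ratio was -0.15 at CA 50 µM and -0.35 at CA 100 µM, with a spot SD of 0.050 for each, and -0.21 between the doses. The sign at CA 50 µM depended on the scaling, since quantile normalization gave 0.14, cyclic loess 0.07 and the log2 table deposited by the authors 0.18. At CA 100 µM it stayed below 0 in all 10 settings, between -0.38 and -0.05.

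The level of the whole bright end of the array bears on ALB. Over the 5% of probes with the highest mean signal the median ratio was -0.16 at CA 50 µM and -0.11 at CA 100 µM, while over all probes it was -0.01 and -0.02. Of those bright probes 52.9% had a lower ratio than ALB at CA 50 µM and 7.18% at CA 100 µM. The ratio of ALB was thus in the middle of those of this bright set at the lower dose and near their low end at the higher one, although the set also holds probes dimmer than that of ALB.

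TTR encodes transthyretin, another negative acute-phase protein. Its signal was 52086 untreated, 42918 after CA 50 µM and 44397 after CA 100 µM, so both CA arrays lay below the untreated one. The ratio was -0.47 at each dose, 1.38-fold lower, and the 2 CA arrays had the same scaled signal to 2 decimals (0.00 between the doses). Among the brightest 5% of probes, 27 of 1124 were as low at CA 50 µM and 21 of 1114 at CA 100 µM, TTR included. The sign held in all 10 settings, although cyclic loess, quantile normalization and the deposited log2 table left it under 1.3-fold, at -0.29, -0.26 and -0.26 for CA 50 µM and at -0.33, -0.29 and -0.29 for CA 100 µM.

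AHSG encodes fetuin-A, an inhibitor of calcium phosphate precipitation and also a negative acute-phase protein. Its signal was 23197 untreated, 24337 after CA 50 µM and 24957 after CA 100 µM. The ratio was -0.12 and -0.13, and of the brightest 5% of probes 59.2% and 43.3% were lower. At CA 50 µM the value was above 0 under quantile normalization (0.01), cyclic loess (0.02) and in the deposited table (0.03).

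**Figure D2:**
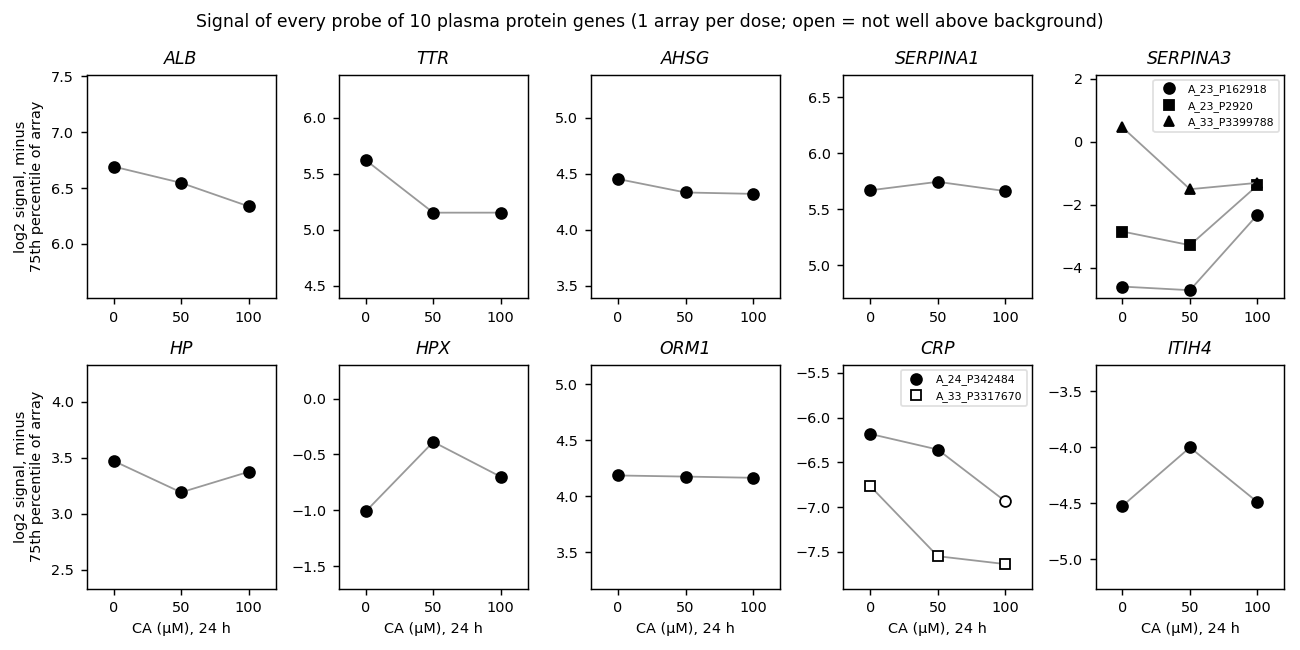
Scaled log2 signal (vertical axis, array 75th percentile subtracted) of every probe of the 10 genes at 0, 50 and 100 µM CA (horizontal axis), 1 array per dose, with open symbols where a probe was not well above background. Panels of genes with 1 probe share the same span of the vertical axis, those of SERPINA3 and CRP are wider; signals can be compared along a line and not between probes, and at 100 µM the SERPINA3 probes had ratios of 2.28, 1.46 and -1.76 to untreated cells.

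SERPINA1 encodes alpha-1-antitrypsin, the main inhibitor of neutrophil elastase in plasma. Its signal was 53870 untreated, 64742 after CA 50 µM and 63237 after CA 100 µM. The ratio was 0.08 at CA 50 µM and -0.01 at CA 100 µM, and both depended on the scaling. Quantile normalization gave 0.29 and 0.23, as did the deposited table, and cyclic loess gave 0.26 and 0.14. Its spot carried a background flag on the untreated and the CA 100 µM arrays, and on the latter it lay in a disturbed area, where 9 of 28 nearby dim spots were bright. The part of that area in the signal was not tested.

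ITIH4, a heavy chain of the inter-alpha-trypsin inhibitor family and an interleukin-6 responsive plasma protein, has the STAT letters shown above in its promoter window. Its probe had 46.1 untreated, 75.5 after CA 50 µM and 55.7 after CA 100 µM, the middle dose being the highest. The ratio was 0.52 at CA 50 µM, 1.44-fold higher, with a spot SD of 0.12, and 0.03 at CA 100 µM, where normexp with the offset gave -0.11. Between the doses it was -0.49, 1.40-fold lower. Under normexp with the offset the CA 50 µM value was under 1.3-fold, at 0.16. The adjoining genes ITIH1 and ITIH3, looked up with the members' values known, had 0.22 and 0.31 at CA 50 µM and 0.07 and 0.02 at CA 100 µM. They too were dim, ITIH1 with 61.5, 81.9 and 75.9 and ITIH3 with 23.8, 33.6 and 28.4, and they were not read under normexp.

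HP encodes haptoglobin, which binds free haemoglobin. Its signal was 11751 untreated, 11029 after CA 50 µM and 12953 after CA 100 µM. The ratio was -0.28 at CA 50 µM and -0.10 at CA 100 µM, below 0 in all 10 settings, and 0.18 between the doses. Under normexp with the offset the first was -0.39, just past 1.3-fold. HPR, a near-identical neighbour whose RNA may share the HP probe, had 4980, 5906 and 5538, and its ratios were 0.06 and -0.09. In the main scaling haptoglobin was thus lower by less than 1.3-fold at both doses.

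HPX encodes hemopexin, which carries free haem back to the liver. Its probe had 526 untreated, 923 after CA 50 µM and 769 after CA 100 µM, so both CA arrays were above the untreated one. The ratio was 0.62 at CA 50 µM, 1.54-fold higher with a spot SD of 0.066, and 0.31 at CA 100 µM, 1.24-fold higher with a spot SD of 0.062. Between the doses it was -0.31. These values hardly depended on the setting, with 0.57 to 0.62 at CA 50 µM and 0.29 to 0.32 at CA 100 µM. Of the spots nearby, 1 of 81 and 2 of 82 were as high. Over the whole array 948 of 22471 probes were as high at CA 50 µM and 1971 of 22267 at CA 100 µM, HPX included.

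ORM1 encodes orosomucoid, or alpha-1-acid glycoprotein, which binds basic drugs in plasma. Its signal was 19276 untreated, 21829 after CA 50 µM and 22411 after CA 100 µM, close to the rise of the 75th percentile. The ratio was -0.01 and -0.02, with values up to 0.13 at CA 50 µM and 0.08 at CA 100 µM under other scalings. Its near-identical paralog ORM2, whose RNA may reach the same probe, had 13268, 16298 and 15637 with ratios of 0.11 and -0.00, and its spot on the CA 100 µM array lay in a disturbed area.

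CRP encodes C-reactive protein, the pentraxin used as a clinical marker of inflammation. Its probe A_24_P342484 had 14.6 untreated, 14.7 after CA 50 µM and 10.2 after CA 100 µM, and only the last was not well above background. The ratio at CA 50 µM was -0.17, with a spot SD of 0.12. No fold is given for CA 100 µM, where the signal was lower and not told from background. Its other probe, A_33_P3317670, had 9.72, 6.45 and 6.27 and was not well above background on any array, so no fold is given. CRP thus sat at the edge of detection.

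**Figure D3:**
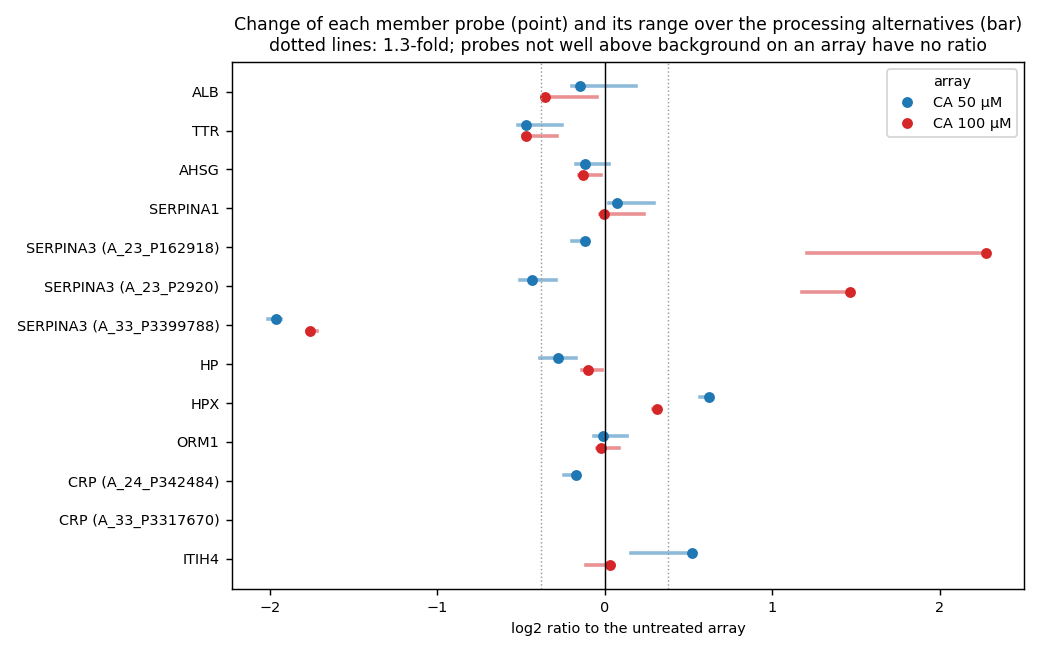
Log2 ratio to the untreated array (horizontal axis) of each member probe (rows), as a point for CA 50 µM (blue) and CA 100 µM (red), with a bar for its lowest and highest value over the processing settings and dotted lines at 1.3-fold. The SERPINA3 bars at CA 100 µM lie far from 0, that of A_23_P162918 reaching from 1.21 to 2.29. At CA 50 µM the bar of A_23_P162918 lies near 0, from -0.193 to -0.115, and the ALB bar, from -0.20 to 0.18, crosses 0.

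Counted over probes, 12 of the 13 had a ratio at CA 50 µM, with a median of -0.13. Of these, 3 were at least 1.3-fold lower (A_23_P2920 and A_33_P3399788 of SERPINA3, and TTR), where 7.15% of all probes were, and 2 were at least 1.3-fold higher (HPX and ITIH4), where 12.5% of all probes were. At least 2-fold lower was 1 member probe against 0.458% of all probes, and at least 2-fold higher were 0 against 0.614%. At CA 100 µM 11 had a ratio, with a median of -0.02. There 2 were at least 1.3-fold lower (TTR and A_33_P3399788) against 5.44% of all probes, and 2 were at least 1.3-fold higher (the other SERPINA3 probes) against 6.09%. The same SERPINA3 probes were the 1 at least 2-fold lower, against 0.256%, and the 2 at least 2-fold higher, against 0.638%. Because the genes were selected on these same ratios, nothing is read from the difference between these counts and the background.

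Between the doses the 11 member probes had a median of -0.01. The 1 at least 1.3-fold lower at CA 100 µM was ITIH4 (8.03% of all probes), and the 2 at least 1.3-fold higher were A_23_P162918 and A_23_P2920 of SERPINA3 (3.46%). These 2 were also at least 2-fold higher (0.681%), while 0 were at least 2-fold lower (0.174%).

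**Figure D4:**
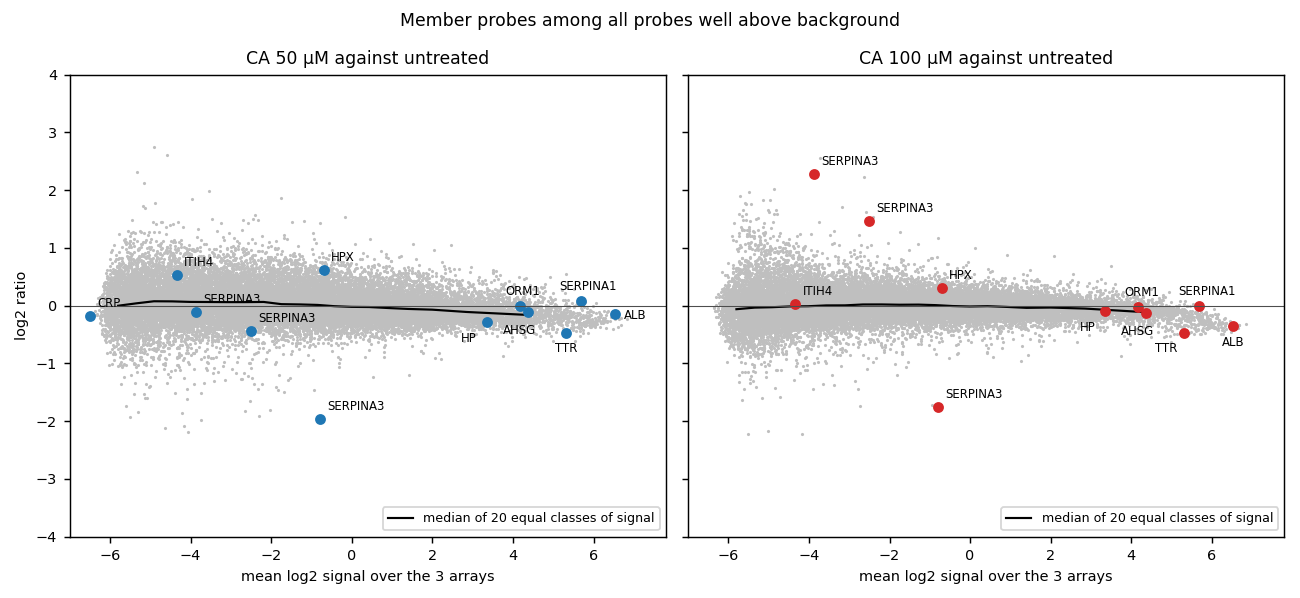
Log2 ratio to the untreated array (vertical axis) against mean scaled log2 signal over the 3 arrays (horizontal axis) for all probes well above background on all of them (grey), with the member probes coloured and named and the black line giving the median in equal classes of signal. SERPINA3 probes lie at the outer edge of the grey cloud, at -1.96 on the left and at 2.28, 1.46 and -1.76 on the right, and the black line sinks below 0 at the bright end, where ALB, TTR, AHSG, SERPINA1 and ORM1 are found.

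Lists of further genes place the members in their pathway, each gene being read from its brightest probe. They were written with earlier results of these arrays known. Over all 14546 genes read this way, 7.14% were at least 1.3-fold lower and 10.6% at least 1.3-fold higher at CA 50 µM, and 4.48% and 4.1% at CA 100 µM, with median ratios of -0.04 and -0.03.

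Among 20 other positive acute-phase proteins all were measured, with medians of -0.09 at both doses. At CA 50 µM 2 were at least 1.3-fold lower and 1 higher, and at CA 100 µM 0 were in either direction. SAA2, a serum amyloid A gene, had 1397 untreated, 1024 after CA 50 µM and 1383 after CA 100 µM on its brighter probe, giving -0.64 and -0.25, but -0.11 and 0.02 on its other probe. MBL2, the mannose-binding lectin that starts a complement pathway, had -0.40 and -0.21. CP, the copper carrier ceruloplasmin, had -0.19 and -0.32. None of these genes reached 2-fold at either dose on its brightest probe. On a dimmer probe SERPING1, the gene of the C1 inhibitor, did so at CA 50 µM, and it is named after its values were seen. Its probe A_33_P3413989 had 78.7 untreated, 205 after CA 50 µM and 129.97 after CA 100 µM, with ratios of 1.19 and 0.49. Its probe A_33_P3413987 had 0.72 and 0.36 and its brightest probe 0.38 and 0.12, so the SERPING1 probes differed in size and not in direction.

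Among 20 other plasma carriers and negative acute-phase proteins 18 were measured, with medians of -0.05 and -0.14. At CA 50 µM 0 were at least 1.3-fold lower and 1 higher, and at CA 100 µM 5 were lower and 0 higher. Several of these 5 were only just past 1.3-fold, AFM being the nearest to it at -0.379, and the counts were not read under other scalings. AFP, the fetal albumin homolog that hepatoma cells make, lies next to ALB, and it had 95490 untreated, 89739 after CA 50 µM and 83766 after CA 100 µM, with ratios of -0.28 and -0.43. AFM, the vitamin E carrier afamin and the next gene in that row, was dim, with 40.8 untreated, 35.95 after CA 50 µM and 37.0 after CA 100 µM. Its ratios were -0.37 and -0.38. ITIH2, another heavy chain of the ITIH family, had 7725, 8929 and 5869, with ratios of 0.02 and -0.63. In the albumin gene row, ALB, AFP and AFM were thus below 0 at both doses in this scaling. ALB had the change of sign under other scalings given above, and AFP and AFM were not read under them. GC, the vitamin D carrier at the start of the row, had -0.23 and 0.04.

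**Figure D5:**
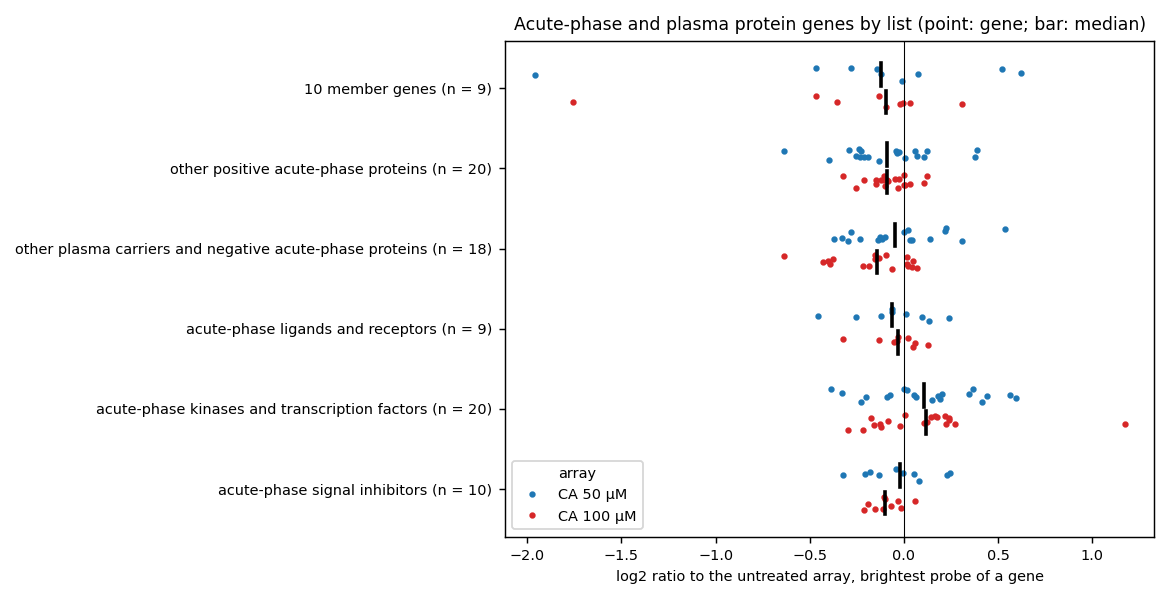
Log2 ratio to the untreated array (horizontal axis) of each gene's brightest probe, by gene list (rows), for CA 50 µM (blue) and CA 100 µM (red), with a black bar at each list's median. The medians of the 5 other lists drawn here lie between -0.14 and 0.12, and the point at the far left of the member genes is SERPINA3 by its brightest probe, at -1.96 and -1.76.

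Upstream in the pathway, 9 of 12 ligands and receptors were measured, with medians of -0.06 and -0.03, and 1 was at least 1.3-fold lower at CA 50 µM and 0 at CA 100 µM, with 0 higher at either. That gene was IL1B, the cytokine interleukin-1 beta, with 85.4, 71.0 and 80.5 and ratios of -0.45 and -0.32, at least 1 of its 10 spots being in a disturbed area on the CA 100 µM array. IL1RAP, the accessory chain of its receptor, had -0.26 and -0.13, and IL1R1, the receptor itself, had 0.24 and 0.13. IL6R, the receptor of interleukin-6, had 0.13 and -0.05.

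Of 22 kinases and transcription factors 20 were measured, with medians of 0.11 and 0.12. At CA 50 µM 1 was at least 1.3-fold lower and 4 higher, and at CA 100 µM 0 lower and 1 higher. TYK2, a JAK-family kinase, had 22.6 untreated, 38.9 after CA 50 µM and 60.0 after CA 100 µM, with ratios of 0.60 and 1.17, and its CA 100 µM spot lay in a disturbed area. RELA, a subunit of NF-kappaB, had 0.57 and 0.27 with at least 1 of its 10 spots in a disturbed area on the CA 100 µM array, and STAT3 had 0.44 and 0.22 on its brighter probe and 0.56 and 0.19 on the other. CEBPA, a C/EBP factor of mature hepatocytes, had 9944, 15100 and 13842, with ratios of 0.41 and 0.24, while CEBPB, the C/EBP factor of the acute phase, had -0.08 and -0.02. No link between these signals and the members was tested.

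Of 10 inhibitors of this signalling all were measured, with medians of -0.02 and -0.10, and 0 were at least 1.3-fold lower or higher at either dose. SOCS3, an inhibitor that STAT3 itself induces, had 765 untreated, 796 after CA 50 µM and 791 after CA 100 µM, with ratios of -0.13 and -0.19. NFKBIA, the inhibitor of NF-kappaB, had -0.32 and -0.10, and TNFAIP3, which ends the same signal, had -0.21 and -0.15.

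Markers of other liver cells were read as a check on the line. The bile duct markers were well above background in 5 of 5 on every array, with medians of -0.41 and -0.19, but without one direction, since KRT7 had -0.91 and -0.61, KRT19 -0.41 and -0.22, CFTR -0.23 and -0.19, SPP1 -0.60 and 0.12, and SOX9 0.36 and 0.19. Of the macrophage markers 3 of 7 passed that limit in untreated cells and 4 on each CA array, of the leukocyte markers 5 of 6 on every array, of the endothelial markers 4 of 6, and of the stellate cell markers 5 of 7 on the untreated and CA 50 µM arrays and 6 on the CA 100 µM array, where the added one, COL1A1, lay in a disturbed area. The part of these signals in the members' ratios was not tested.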

How the data were processed

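Cy3-labelled RNA of Huh7 cells was measured by the authors on 4 × 44K Agilent arrays, 1 per group. The authors analysed the images in Feature Extraction 11.0.1.1. Their deposited spot files give intensity, background-subtracted and not scaled between arrays, with flags. A deposited log2 table of the same arrays, whose making is not given in the sources used here, served as an alternative. It followed the log2 processed signal with r of 0.99995 or more, and each column had a median of 6.23.

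Each array held 43118 gene spots, of which 70.4% to 71.1% were well above background. Saturation flags stood on 0, 0 and 1 gene spots, none of a member. The number of arrays limits the precision.

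From log2 intensity each array's 75th percentile was subtracted. Control spots and outlier flags were left out, and spots of 1 probe were averaged. Ratios needed a signal well above background on both arrays, and calls a 1.3-fold or 2-fold difference. Spots were called disturbed where, within 17 rows and 7 columns, at least 5 and at least 25% of otherwise dim spots were 4-fold brighter on 1 array; this marked 60, 38 and 2460 gene spots. The spot SD is the median over probes printed 10 times, in 4 classes of signal. With 1 array per group there was no test. Alternatives were centring on the median, quantile normalization, cyclic loess, normexp with offset 50, the deposited table, and other filters and probe rules. Named genes were all member probes, ORM2 and HPR, and from each list other than the cell type markers the 3 with the largest mean ratio over both doses plus any at 2-fold; names outside this rule were chosen after their values were seen. The members and lists were chosen with earlier results of these data known. Python 3.11.15 (numpy 2.4.6, pandas 2.3.3), R 4.3.3 and limma 3.58.1 were used. Arrays of MIHA cells and miRNA arrays were not analysed here. Some genes and motifs are not reported here by name.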

Additional observations from a re-analysis of the deposited data

How the results depend on the processing

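Of the 12 member ratios of at least 1.3-fold, none changed sign over 108 alternative values, and 9 values fell under 1.3-fold: TTR at both doses under cyclic loess, quantile normalization and the deposited table, ITIH4 in 2 comparisons and A_23_P2920 of SERPINA3 at CA 50 µM under normexp with its offset. At CA 100 µM the number of member probes at least 1.3-fold lower was 1, in place of 2, under cyclic loess, under quantile normalization, in the deposited log2 table and with the mean of the probes of a gene, and it was 3 where a signal well above background on 1 of both arrays sufficed. The number at least 1.3-fold higher there was 1 with the mean of the probes of a gene and 0 with the brightest probe, and at CA 50 µM it was 1 under normexp in place of 2. The median over members at CA 100 µM was -0.10 with the brightest probe of a gene and 0.0536 under cyclic loess, against -0.02, and that of the other positive acute-phase proteins was -0.0204 under cyclic loess, against -0.09. Beyond the values given here, the cause of these moves was not tested. No paired analysis was possible because each group had 1 array, and for the same reason no replicate could be left out. Signal over background limits CRP, which had no ratio at CA 100 µM.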
